A study of Mus musculus with 64 samples.

Results

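The genes described here encode the proteins of the mitochondrial ribosome. They were taken as every protein-coding row of the count table whose mouse symbol is Mrpl or Mrps followed by a number, which gave 78 genes, 49 Mrpl and 29 Mrps, of 55335 genes in the table and of 21899 protein-coding ones. The 5 processed pseudogenes with such symbols (Mrpl23-ps1, Mrpl48-ps, Mrps36-ps1, Mrps36-ps2 and Mrps36-ps3) were not counted as members. The symbols stand for 49 large-subunit proteins, 29 of them with a bacterial homologue, and 26 small-subunit proteins, 17 of them with one. The other 3 carry S symbols but lie outside the small subunit: Mrps18a and Mrps30 encode large-subunit proteins, and Mrps36 encodes a component of the ketoglutarate dehydrogenase complex.

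The cells were V6.5 mouse embryonic stem cells, in which 12 degron lines each carry a tag on a different one of the 12 subunits of RNA polymerase II, named RPB1 to RPB12. RPB5, RPB6, RPB8, RPB10 and RPB12 are also part of RNA polymerases I and III. In such lines indole-3-acetic acid (IAA, an auxin) brings the tagged protein to the plant receptor OsTir1 and so to breakdown. After 12 h of doxycycline, which induces OsTir1 and was used at 2 µg/ml per the sample protocols but 1 µg/ml per the series text, each degron line and the wild-type cells (WT) were kept for 12 h with 500 µM IAA or left untreated, with 2 libraries in each of 26 groups. A second set held RPB1, RPB3 and RPB6 cells after 1 h of IAA or at 0 h, with 2 libraries in each of 6 groups. All groups share the parent line, the doxycycline step of the protocol, a medium with the GSK3 inhibitor CHIR99021 and the MEK inhibitor PD0325901, and 10% of Drosophila S2 cells added at RNA extraction, whose reads were not analysed here. Clone number per line and OsTir1 in WT cells are not stated in the labels. Nor do they call replicate libraries independent cultures, and p-values then measure only the spread among these libraries, which may be technical. Loss of a tagged protein cannot be read from RNA counts and was not checked here. In bulk RNA, fewer cells of a type and less RNA per cell cannot be told apart.

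The mitochondrial ribosome translates the few mRNAs of the mitochondrial genome, all of which encode core subunits of the respiratory chain and ATP synthase. Its ribosomal RNAs and those mRNAs are copied by a separate, phage-like mitochondrial RNA polymerase. Its proteins are all encoded in the nucleus, transcribed by RNA polymerase II, translated in the cytosol and imported. Some descend from bacterial ribosomal proteins, whereas others were added during mitochondrial evolution, and the assembled particle needs both.

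The libraries of the 12 h set held 3399838 to 7164928 counts assigned to mouse genes (median 5244543), and those of the 0 h and 1 h set 8598431 to 13281252 (median 9434286.5). Pluripotency markers summed to 4768 to 7117 CPM (counts scaled to a common library size) in untreated libraries and none of the 10 averaged under 1 CPM, whereas 7 of 8 embryonic fibroblast markers did and the 8 summed to at most 14.7 CPM. Of the primitive endoderm markers 6 of 7 averaged under 1 CPM, and the 7 summed to at most 23.4 CPM. Of the trophectoderm markers only 3 of 7 did, and the 7 summed to 91.4 to 154.9 CPM. CPM values below are scaled by edgeR's TMM factors, which ranged between 0.539 and 1.17 in the 12 h set and between 0.963 and 1.03 in the other. A gene was called changed at a Benjamini-Hochberg adjusted p under 0.05 in edgeR's quasi-likelihood test, with the adjustment made over all genes tested in the comparison. Of the 78 members 77 passed the filter on low counts in both sets. Mrpl53 was listed at 0 in all 64 libraries; its annotated exons overlap those of Gm42688 and Ccdc142os.

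The members differed widely in level in untreated cells. Per kilobase of annotated exon, Mrpl34, a small protein of the large subunit with a bacterial homologue, stood highest, with a median of 109.6 CPM per kb over the 26 untreated libraries of the 12 h set (range 71.1 to 157). Mrpl12, which forms part of the stalk that recruits translation factors, followed at 88.3 (56.1 to 142), and Mrpl18, which lies in the central protuberance, at 87.1 (69.5 to 108). These 3 ranges overlapped. They pool different lines and the genes share libraries, so the overlap does not settle the order at the top, which was not tested. At the low end stood Mrpl48 at 6.17 CPM per kb and Mrpl33 at 3.91 CPM per kb. Mrpl33 has 7326 bases of annotated exon, and its median before division by length was 28.6 CPM. By that measure Mrps6 was the lowest tested member, at 15 CPM. Together the members took 0.472% ± 0.0217 of counts in untreated WT cells (SD, n = 2).

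The lines differed before any IAA. In an F-test over the 12 untreated degron lines against untreated WT cells, 74 of 77 members passed, beside 79.8% of all genes. The 3 with the smallest adjusted p were all highest in untreated RPB7 cells. Mrps25 had 151 and 163 CPM there, against 69.3 and 71.1 CPM in untreated RPB11 cells, the lowest line (adjusted p = 5.78e-15). Mrpl49 had 112 and 125 CPM in untreated RPB7 cells, against 56.9 and 67.6 CPM in untreated RPB5 cells (adjusted p = 1.14e-11). Mrpl38, a large-subunit protein without a bacterial homologue, had 116 and 131 CPM in untreated RPB7 cells, against 63.4 and 60.7 CPM in untreated WT cells (adjusted p = 1.15e-11). Each response below is therefore measured within a line, against its own untreated libraries.

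Few members were called in WT, RPB4 and RPB12 cells. In WT cells 0 of 77 were called by edgeR or DESeq2, beside 1.65% of all genes (0.803% higher and 0.842% lower), 5 had an unadjusted p under 0.05, and a fit of the WT libraries alone called 2; the members' median log2 fold change was -0.09, against -0.005 for all genes. In RPB4 cells 0 of 77 were called as well by both tools, beside 2.08% of all genes, with 3 at an unadjusted p under 0.05 and a median of -0.04. In RPB12 cells 1 was called, beside 4.79% of all genes (2.14% higher and 2.65% lower): Mrps18c, one of the proteins related to bacterial S18, at 31.2 and 32.6 CPM with IAA, against 24.5 and 20 CPM untreated (log2 fold change 0.52, SE 0.155, adjusted p = 0.0355). The untreated and treated values did not overlap, but the call was lost in DESeq2, without the low-count filter and in 3 of the 4 fits that left out a library. In each of the other 10 degron lines 16 or more members were called, and all 77 were called in at least 1 degron line, as were 97.4% of all genes tested.

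**Figure D1:**
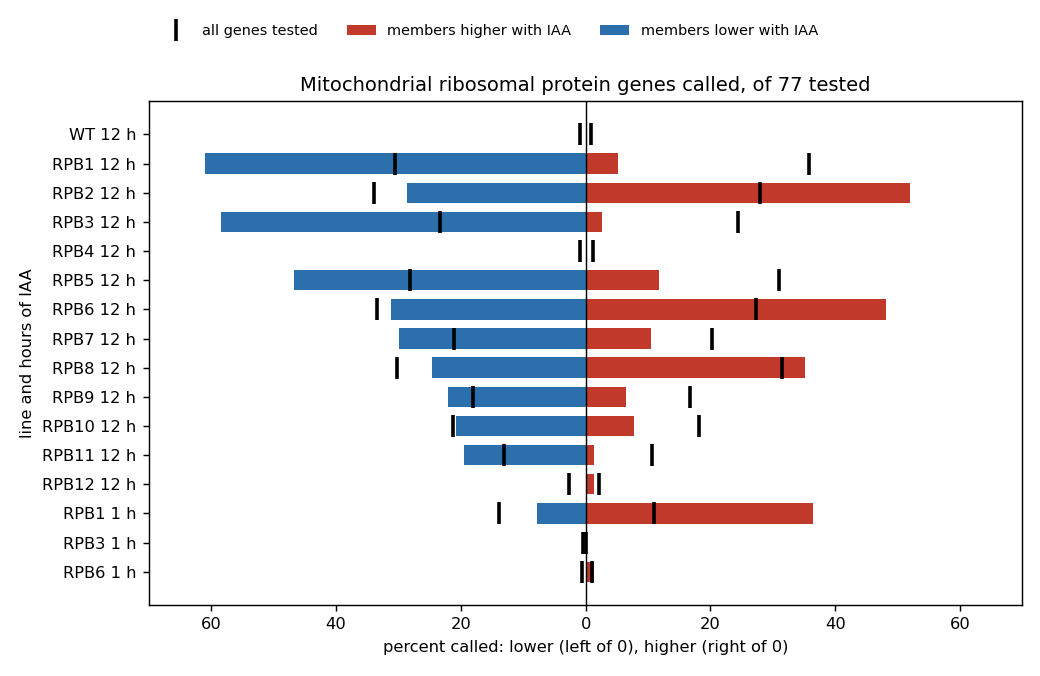
Percent of the 77 tested members called higher (red, right of 0) or lower (blue, left of 0) with IAA in each line and time, with black ticks for the percent of all genes tested. Blue bars pass their tick in RPB1, RPB3 and RPB5 cells, where 47, 45 and 36 members were lower, and by less in RPB7, RPB9 and RPB11 cells, whereas red bars pass theirs in RPB2, RPB6 and RPB8 cells and in RPB1 cells at 1 h, where 40, 37, 27 and 28 were higher under TMM; total-count and mitochondrial-mRNA scaling turned RPB2, RPB6 and RPB8 cells to more lower than higher, and mitochondrial-mRNA scaling turned RPB3 cells the other way.

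After 12 h without RPB1, the largest subunit and the one that carries the catalytic centre and the C-terminal repeat domain, most members fell. Of 77, 47 were lower and 4 higher, beside 30.5% and 35.8% of all genes, and the members' median log2 fold change was -0.44 against 0.09 for all genes. Both subunits took part: of the large-subunit proteins 18 of 29 with a bacterial homologue and 13 of 19 without one fell, and of the small-subunit proteins 9 of 17 and 5 of 9. The members' share of counts was 0.43% ± 0.0153 with IAA, against 0.528% ± 0.00622 untreated (SD, n = 2 each).

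The lowest of them were Mrpl58, Mrps18a and Mrps24. Mrpl58, a peptidyl-tRNA hydrolase built into the large subunit, had 12.6 and 14.6 CPM with IAA, against 41.5 and 42.6 CPM untreated (log2 fold change -1.63, SE 0.169, adjusted p = 1.75e-11). Mrps18a had 11 and 12.5 CPM with IAA, against 40.6 and 31.7 CPM untreated (-1.62, SE 0.162). Mrps24, a small-subunit protein near the mRNA entry, had 22.5 and 25.1 CPM with IAA, against 68.5 and 66.1 CPM untreated (-1.50, SE 0.17). In each of these the treated libraries held less than either untreated library, with a wide gap. Mrps24 shares exon sequence with Urgcp on the same strand, so strand cannot tell their reads apart there. Mrpl58 overlaps the antisense Ict1os, and since the strand setting of the counting is not given those reads cannot be told apart either. Mrps18a overlaps no other annotated exon.

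The 4 that rose in RPB1 cells all belong to the small subunit: Mrps17, Mrps23, Mrps11 and Mrps6. Mrps17, a conserved protein that binds the small ribosomal RNA, had 127 and 142 CPM with IAA, against 72.3 and 67 CPM untreated (log2 fold change 0.95, SE 0.109, adjusted p = 3.04e-10). Mrps23, which has no bacterial homologue, had 68.4 and 81.2 CPM with IAA, against 40.2 and 41.6 CPM untreated (0.87, SE 0.13). Mrps11, part of the platform of the small subunit, had 41.8 and 46.8 CPM with IAA, against 28.6 and 26.9 CPM untreated (0.67, SE 0.166). No treated value of the 3 overlapped an untreated one. Mrps11 and Mrpl46 overlap on opposite strands.

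RPB3 and RPB5 cells lost members in a similar way. In RPB3 cells, where the scaffold partner of RPB11 is removed, 45 were lower and 2 higher, beside 23.3% and 24.4% of all genes (median -0.40 against 0.06), but scaled to mitochondrial-genome mRNAs the direction turned, with 21 higher and 1 lower; the mitochondrial-genome mRNAs made up 0.534% of counts in RPB3 IAA replicate 1, against 1.72% in replicate 2. In RPB5 cells 36 were lower and 9 higher, beside 28.1% and 31% of all genes, or 59.1% in either direction (median -0.30 against 0.08). The same 26 members were lower in RPB1, RPB3 and RPB5 cells (33.8% of the 77, beside 13.2% of all genes). These 3 comparisons share no library.

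Mrpl54 (chr10:81264713-81266934, mm10), a large-subunit protein without a bacterial homologue, was the lowest member in RPB3 cells, with 8.12 and 8.73 CPM with IAA, against 26.9 and 24.8 CPM untreated (log2 fold change -1.61, SE 0.189, adjusted p = 1.2e-09). Mrpl58 followed, with 22.2 and 22.3 CPM with IAA, against 60.6 and 57.4 CPM untreated (-1.41, SE 0.144). Mrps18b was next, with 26.9 and 33.3 CPM with IAA, against 75.1 and 73.8 CPM untreated (-1.31, SE 0.109). The treated libraries of all 3 lay far under the untreated ones. The members called higher were Mrps23, with 69.8 and 60.3 CPM with IAA, against 50.9 and 45.1 CPM untreated (0.44, SE 0.124), and Mrpl36, a very small protein of the large subunit, with 64.2 and 64.2 CPM with IAA, against 49.6 and 54.3 CPM untreated (0.30, SE 0.115).

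In RPB5 cells Mrpl58 was again lowest, with 15.3 and 10.1 CPM with IAA, against 43.9 and 44.2 CPM untreated (log2 fold change -1.79, SE 0.171, adjusted p = 2.19e-12). Mrpl55 had 18.9 and 13.3 CPM with IAA, against 43.3 and 51.5 CPM untreated (-1.56, SE 0.178), and Mrpl1, which forms the stalk at the exit site for tRNA, had 16.7 and 20.6 CPM with IAA, against 58.5 and 41.1 CPM untreated (-1.41, SE 0.163). Groups did not overlap for any of them. At the other end Mrps6, a conserved small-subunit protein, had 54.3 and 48.2 CPM with IAA, against 15 and 13.8 CPM untreated (1.84, SE 0.176), the largest rise of a member in these cells. Its exons overlap Slc5a3 on the same strand, so reads of that gene could be counted with it. Mrps11 had 58.4 and 49.1 CPM with IAA, against 19.5 and 29 CPM untreated (1.13, SE 0.164), and Mrpl28 had 98.9 and 92.8 CPM with IAA, against 52.2 and 75.9 CPM untreated (0.57, SE 0.156).

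Without RPB2, which forms the catalytic cleft together with RPB1, the members spread out more than in any other line, with log2 fold changes between -3.66 and 1.92. By quartiles all genes spread more widely there than members did, between -1.64 and 0.95 beside -0.43 and 1.02. Under TMM scaling 40 were higher and 22 lower, beside 27.9% and 34% of all genes, or 61.9% in either direction (median 0.33 against -0.19), but scaled by total counts 19 were higher and 47 lower, and scaled to mitochondrial-genome mRNAs 0 and 70. The median of all genes moved with the scaling too, to -1.03 with total counts and -2.32 with mitochondrial-genome mRNAs. Relative to it the members stood 0.51 higher with total counts, 0.45 with mitochondrial-genome mRNAs and 0.52 with TMM, and over the 8 settings tried this gap lay between 0.18 and 0.61. A change of scaling shifts all genes of a library alike, so agreement between scalings was nearly fixed in advance. The lowest gap, 0.18, came without the low-count filter, a setting that changes the genes compared. As a share of all counts the members fell, to 0.47% ± 0.00537 with IAA, against 0.607% ± 0.0747 untreated (SD, n = 2 each). Mitochondrial-genome mRNAs rose in the same libraries, 12 of 12 with a median of 2.46, and so did 85 of 90 cytosolic ribosomal protein genes (median 1.74); this list was added after the data were seen.

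Mrps15, Mrps21 and Mrps28, all of the small subunit, led the upper end in RPB2 cells. Mrps15, which binds the small ribosomal RNA directly, had 267 and 265 CPM with IAA, against 64.8 and 75.5 CPM untreated (log2 fold change 1.92, SE 0.116, adjusted p = 2.47e-19). Mrps21 had 139.8 and 138 CPM with IAA, against 37.2 and 43.9 CPM untreated (1.77, SE 0.178), and Mrps28 had 107 and 109 CPM with IAA, against 27.4 and 35.6 CPM untreated (1.76, SE 0.162). Treated and untreated values were far apart in all 3, though each had a negative log2 fold change when scaled to mitochondrial-genome mRNAs. None of the 3 overlaps another annotated exon.

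Mrpl44, Mrpl32 and Mrpl43, all of the large subunit, formed the lower end. Mrpl44 (chr1:79776018-79781445), which holds a ribonuclease III-like fold, had 2.38 and 5.59 CPM with IAA, against 48 and 53.3 CPM untreated (log2 fold change -3.66, SE 0.262, adjusted p = 7.34e-17). Its treated values rest on 5 and 12 counts. Mrpl32, whose maturation by the m-AAA protease precedes its entry into the ribosome, had 5.71 and 2.8 CPM with IAA, against 27.2 and 33.4 CPM untreated (-2.84, SE 0.288). Mrpl43 had 13.8 and 17.7 CPM with IAA, against 62.3 and 78.6 CPM untreated (-2.17, SE 0.175). They fell under TMM, total-count and mitochondrial-mRNA scaling alike. Mrpl44 overlaps Wdfy1, and Mrpl43 overlaps Twnk, the gene of the mitochondrial DNA helicase, each on the opposite strand.

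RPB6 cells answered nearly member by member as RPB2 cells did. Under TMM scaling 37 members were higher and 24 lower, beside 27.3% and 33.4% of all genes (median 0.16 against -0.13), but scaled by total counts 19 and 44, and scaled to mitochondrial-genome mRNAs 0 and 66. Both lines called the same 36 members higher (46.8%, beside 22.1% of all genes) and the same 19 lower (24.7%, beside 27.5%). In opposite directions 0 members were called, near the background of 0.245% and 0.826% of all genes. Across the 77 members the log2 fold changes in RPB2 and RPB6 cells had a Spearman correlation of 0.95, given as a description; over all genes it was 0.73. These comparisons share no library.

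The top members in RPB6 cells were Mrpl54, Mrps33 and Mrps21. Mrpl54 had 64.9 and 68.5 CPM with IAA, against 20.8 and 23.5 CPM untreated (log2 fold change 1.59, SE 0.158, adjusted p = 2.89e-12). Mrps33 had 53.7 and 57.7 CPM with IAA, against 19 and 18.3 CPM untreated (1.58, SE 0.157), and Mrps21 had 103 and 114 CPM with IAA, against 35.8 and 37.7 CPM untreated (1.56, SE 0.178). Each was separated from its untreated libraries and each turned negative when scaled to mitochondrial-genome mRNAs. At the bottom, Mrpl43 had 7.29 and 10.5 CPM with IAA, against 49.8 and 52.1 CPM untreated (-2.52, SE 0.187). Mrps2, a conserved small-subunit protein, had 25.8 and 17.6 CPM with IAA, against 103 and 95 CPM untreated (-2.19, SE 0.14). Mrps31 had 15.9 and 15.9 CPM with IAA, against 61.1 and 72.7 CPM untreated (-2.07, SE 0.151). In these 3 the treated libraries lay far under the untreated ones.

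In RPB8 cells 27 members were higher and 19 lower under TMM, beside 31.5% and 30.2% of all genes, or 61.7% in either direction (median 0.14 against 0.04), whereas total counts gave 22 and 27, and mitochondrial-genome mRNAs 0 and 67. The first counts lie near the background of all genes. Mrps11 had 67.5 and 76.2 CPM with IAA, against 24.5 and 24.4 CPM untreated (log2 fold change 1.55, SE 0.166, adjusted p = 3.33e-11), Mrps23 had 128 and 127 CPM with IAA, against 43.5 and 43.7 CPM untreated (1.55, SE 0.126), and Mrps17 had 179 and 138 CPM with IAA, against 64 and 59.9 CPM untreated (1.36, SE 0.111). They are 3 of the 4 that also rose in RPB1 cells. Mrps27, a pentatricopeptide-repeat protein of the small subunit, had 34 and 33.5 CPM with IAA, against 93.5 and 91.4 CPM untreated (-1.45, SE 0.127). Mrpl55 had 19.2 and 21.2 CPM with IAA, against 53.3 and 51.5 CPM untreated (-1.38, SE 0.182), and Mrps22 had 13.7 and 21.8 CPM with IAA, against 42.8 and 45.1 CPM untreated (-1.32, SE 0.182). Across members the responses in RPB8 and RPB5 cells had a Spearman correlation of 0.78, and those in RPB8 and RPB2 cells 0.24. No values over all genes are given beside these, so they are not read as traits of the members.

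**Figure D2:**
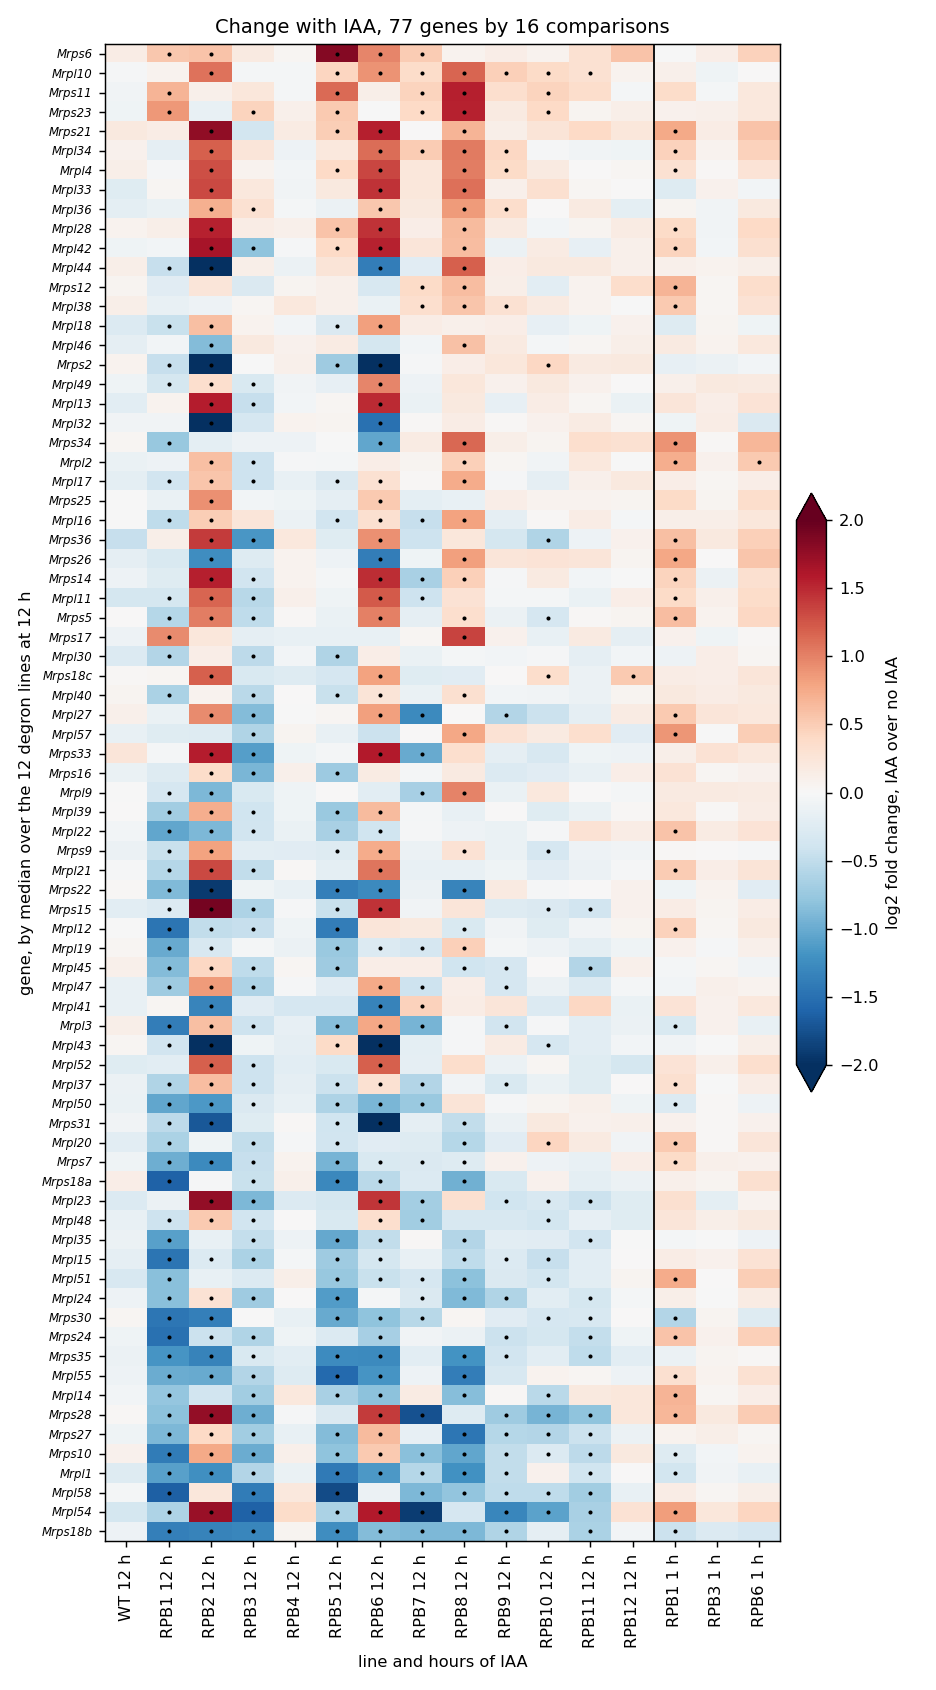
Log2 fold change with IAA of each of the 77 tested members (rows, by their median over the 12 degron lines at 12 h) in each line and time (columns), with colour capped at 2 in either direction and a dot where the member was called. The RPB2 and RPB6 columns carry the same pattern, with Mrpl44, Mrpl32, Mrpl43 and Mrps2 in blue, whereas WT, RPB4 and RPB3 at 1 h hold no dot.

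The remaining lines changed fewer members, mostly downward under TMM. Of the 77 members 29.9% were lower in RPB7, 22.1% in RPB9, 20.8% in RPB10 and 19.5% in RPB11 cells. Higher were 10.4%, 6.49%, 7.79% and 1.3%. The lower shares in RPB9 and RPB10 cells lie near those of all genes, so they are not read as traits of the members. RPB7 cells, in which the partner of RPB4 in the stalk is removed, had 23 lower and 8 higher, beside 21.1% and 20.2% of all genes, or 41.3% in either direction; without RPB7 untreated replicate 2, in which members took more of the counts, 15 were lower and 18 higher. RPB9 cells had 17 lower and 5 higher, beside 18% and 16.8%. RPB10 cells had 16 lower and 6 higher, beside 21.2% and 18.2%, but 7 lower and 13 higher with total counts. RPB11 cells had 15 lower and 1 higher, beside 13.1% and 10.6%. The counts moved by over 1.5 times in several settings: any 1 library left out gave 12 to 14 called in RPB9 cells and 10 to 13 in RPB10 cells, a fit of the line's own libraries gave 40 in RPB9 cells, 47 in RPB10 cells, 15 in RPB7 cells and 5 in RPB11 cells, and RPB11 cells without IAA replicate 2 gave 9.

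Mrpl44, Mrpl54 and Mrps28 had the widest ranges of log2 fold changes over the 12 degron lines. Mrpl44 spanned -3.66 in RPB2 cells to 1.19 in RPB8 cells, where it had 81.8 and 96.7 CPM with IAA, against 42.8 and 35.2 CPM untreated. Mrpl54 ranged between -1.91 and 1.72, and Mrps28 between -1.75 and 1.76. Mrps28 (chr3:8802146-8923918) is a small-subunit protein with a bacterial homologue. In RPB7 cells Mrpl54 had 8.44 and 7.56 CPM with IAA, against 23.7 and 36.9 CPM untreated (log2 fold change -1.91, SE 0.186, adjusted p = 1.16e-11), and Mrps28 had 6.97 and 8.89 CPM with IAA, against 23 and 31.5 CPM untreated (-1.75, SE 0.205). In RPB9 cells Mrpl54 had 11.1 and 13 CPM with IAA, against 31 and 28.6 CPM untreated (-1.31, SE 0.174). Mrpl54 and Mrps28 also fell in RPB10 cells, by 1.08 and 0.92 on the log2 scale, and in RPB11 cells, by 0.65 and 0.81. Over the 12 degron lines Mrpl54 was called lower in 7 and higher in 2, and Mrps28 lower in 6 and higher in 2. The lines in which these 2 genes rose under TMM were RPB2 and RPB6. Mrpl54 had 80.4 and 90.4 CPM in RPB2 cells with IAA, against 21.9 and 29.3 CPM untreated. Scaled to mitochondrial-genome mRNAs, Mrps28 turned to -0.43 in RPB2 cells and Mrpl54 to -0.37 in RPB6 cells. Neither Mrpl54 nor Mrps28 overlaps another annotated exon, and their levels were low, with 46 and 51 counts of Mrpl54 in the treated RPB7 libraries.

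Mrpl54 and Mrps28 had the highest differences in 3 of the 4 direct tests between lines. RPB2 minus RPB1, the largest catalytic subunits, gave 50 members higher and 13 lower, beside 27.5% and 35.1% of all genes, though total counts gave 18 and 30, and mitochondrial-genome mRNAs 1 and 35. The highest differences of log2 fold changes were those of Mrps28 (2.58, SE 0.246, adjusted p = 1e-12) and Mrpl54 (2.34, SE 0.239), and the lowest those of Mrpl44 (-3.20, SE 0.321) and Mrpl32 (-2.78, SE 0.341). RPB6 minus RPB1 gave 50 higher and 10 lower, beside 28.4% and 35% of all genes (27 and 24 with total counts, 0 and 27 with mitochondrial-genome mRNAs), with Mrps28 (2.22) and Mrpl54 (2.21) again highest and Mrpl43 (-2.14) and Mrps2 (-1.72) lowest; it shares the RPB1 libraries with the test before it. 20 members were lower in RPB1 and higher in RPB2 cells under TMM (26%, beside 9.65% of all genes). For the partners of the stalk, RPB4 minus RPB7 gave 13 higher and 3 lower, beside 13.7% and 10.8% of all genes, a share of members no larger than the background; the highest were Mrpl54 (2.27, SE 0.256, adjusted p = 2.03e-09) and Mrps28 (1.72, SE 0.277), with Mrpl41 (-0.79) and Mrpl34 (-0.61) at the other end; without RPB7 untreated replicate 2 it gave 10 higher and 11 lower. For the heterodimer, RPB11 minus RPB3 gave 17 higher and 0 lower, beside 6.84% and 5.5% of all genes, with Mrps36 (1.06) and Mrps33 (1.02) highest. That last count fell to 11 with total counts, DESeq2's size factors or DESeq2 itself, to 0 with mitochondrial-genome mRNAs and to 6 without RPB3 untreated replicate 1, 11 without RPB3 IAA replicate 1 and 9 without RPB11 IAA replicate 1.

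Set against the WT response, which showed no called member, the lines were tested once more. The difference was lower for 36 members and higher for 3 in RPB1 cells, beside 25.1% and 23.9% of all genes. It was lower for 20 and higher for 2 in RPB3 cells, beside 15.3% and 12.9%, and lower for 24 and higher for 4 in RPB5 cells, beside 22.3% and 20%. It was higher for 38 and lower for 20 in RPB2 cells, beside 24.3% and 31.2%, higher for 35 and lower for 18 in RPB6 cells, beside 23.9% and 30.2%, and higher for 30 and lower for 14 in RPB8 cells, beside 23.9% and 25.6%; these 3 turned to more lower than higher with total counts and with mitochondrial-genome mRNAs, and RPB3 minus WT turned to 9 higher and 0 lower with mitochondrial-genome mRNAs. In RPB4 and RPB12 cells 0 members differed from WT by edgeR or DESeq2, beside 0.284% and 0.53% of all genes, with 4 and 5 at an unadjusted p under 0.05. All 12 tests share the 4 WT libraries.

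**Figure D3:**
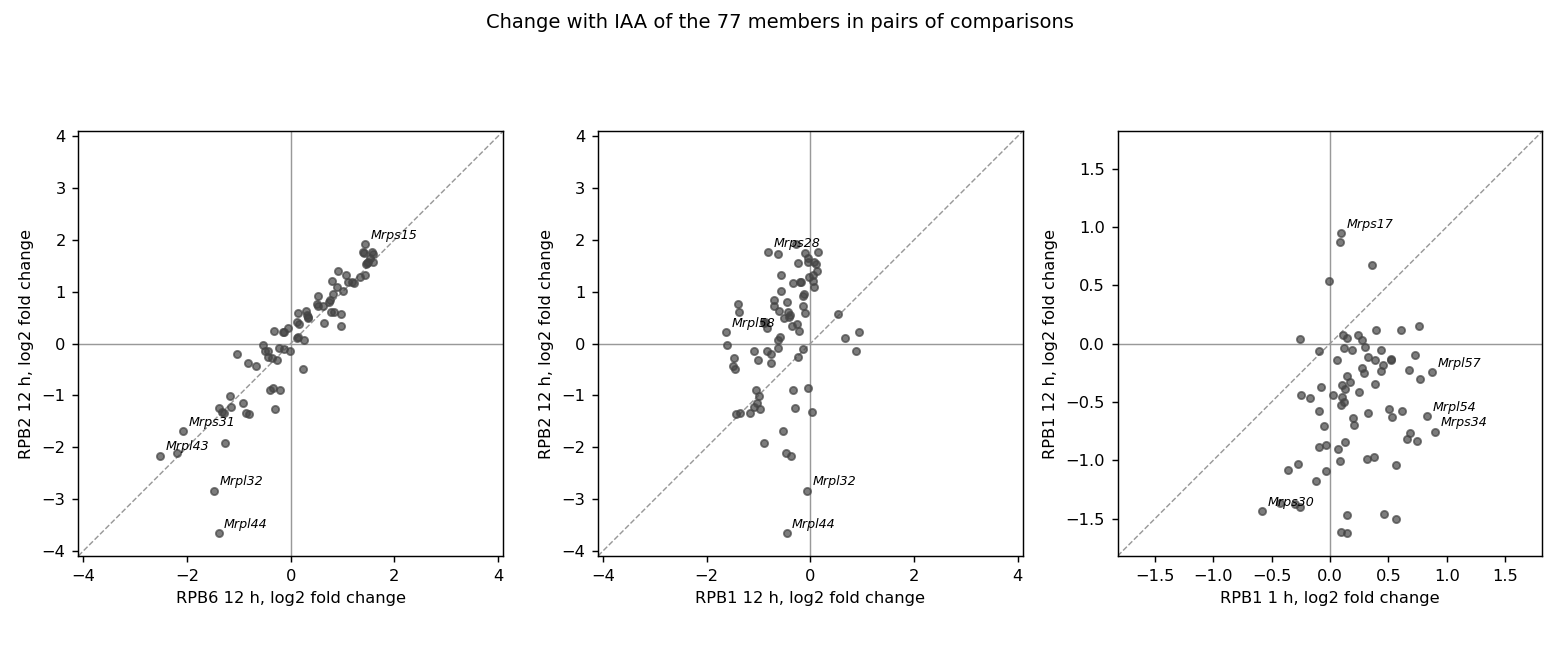
Log2 fold changes with IAA of the 77 tested members, each a point, in RPB2 against RPB6 cells at 12 h (left), RPB2 against RPB1 cells at 12 h (middle) and RPB1 cells at 12 h against 1 h (right), with the dashed line marking equal change. Points follow the diagonal on the left (Spearman 0.95), spread upward and downward in RPB2 cells in the middle, and lie mostly right of 0 and under 0 on the right, where 15 members were higher at 1 h and lower at 12 h.

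Over the 12 degron lines at 12 h, 42 members were called in both directions in different lines, 15 only higher and 20 only lower (54.5%, 19.5% and 26% of members, beside 45%, 30.2% and 22.2% of all genes). Mrpl10 (chr11:97041560-97049213), the base of the stalk that carries Mrpl12, rose in 8 lines and fell in none. Its clearest rise was in RPB8 cells, with 196 and 202 CPM with IAA, against 84.6 and 93.5 CPM untreated (log2 fold change 1.16, SE 0.0835, adjusted p = 2.18e-16); in RPB9 cells it had 113 and 109 CPM with IAA, against 80.9 and 78.2 CPM untreated (0.48, SE 0.0833). It was the only member called higher in RPB11 cells, with 103 and 105 CPM with IAA, against 85.6 and 82.8 CPM untreated (0.30, SE 0.0835). No treated value overlapped an untreated one in these lines. Scaled to mitochondrial-genome mRNAs, its values in RPB2, RPB5, RPB6, RPB7 and RPB8 cells were negative, and its exons overlap the antisense Gm11574. Mrps23 rose in 6 lines, and Mrps6 and Mrps11 in 5 each.

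Mrps18b and Mrpl1 fell in 9 lines each and rose in none, and Mrpl58 fell in 8. Mrps10, a conserved protein of the small-subunit head, fell in 8 and rose in RPB2 and RPB6 cells under TMM. It had 25 and 30.3 CPM in RPB1 cells with IAA, against 74.1 and 72.2 CPM untreated (log2 fold change -1.40, SE 0.118, adjusted p = 3.51e-14), but 102 and 104 CPM in RPB2 cells with IAA, against 56.6 and 64.4 CPM untreated (0.76, SE 0.113). The rise of Mrps10 turned to -0.09 in RPB2 and -0.11 in RPB6 cells with total counts. Mrpl1 had 19.2 and 20.2 CPM in RPB1 cells with IAA, against 41.7 and 42 CPM untreated (-1.09, SE 0.164), and 19 and 20 CPM in RPB2 cells with IAA, against 36.8 and 53.6 CPM untreated (-1.23, SE 0.194). Under TMM the treated levels of Mrpl1 were thus about the same in both lines, but this depends on the scaling. The treated RPB1 libraries held 99 and 108 counts of it, of 4504542 and 4667722 in all. The treated RPB2 libraries held 40 and 43, of 3888530 and 3983822. Mrpl1 overlaps no other annotated exon.

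Mammals carry 3 proteins descended from bacterial S18, which take different places: Mrps18b (chr17:35910379-35916389) and Mrps18c (chr5:100798627-100804471) in the small subunit, Mrps18a (chr17:46110986-46128910) in the large one. Their transcripts went different ways. Mrps18b was called lower in every line except RPB4, RPB10 and RPB12, with log2 fold changes between -1.36 in RPB1 cells and -0.60 in RPB9 cells among the calls. In RPB1 cells it had 30.8 and 30.5 CPM with IAA, against 81.5 and 76.2 CPM untreated (SE 0.112, adjusted p = 1.56e-14), and in RPB2 cells 39 and 32.6 CPM with IAA, against 86 and 95.3 CPM untreated (-1.34, SE 0.126). Mrps18a was lower in RPB1, RPB3, RPB5, RPB6 and RPB8 cells and not called in RPB2 cells. Mrps18c was never called lower: it rose in RPB2 cells, with 61.4 and 59.6 CPM with IAA, against 21.9 and 30 CPM untreated (1.20, SE 0.156), and in RPB6, RPB10 and RPB12 cells. Its rises in RPB2 and RPB6 cells turned to -0.98 and -1.16 when scaled to mitochondrial-genome mRNAs. Mrps18b overlaps the antisense Gm16279, Mrps18c shares exon sequence with Gm43511 on the same strand, and Mrps18a overlaps none.

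**Figure D4:**
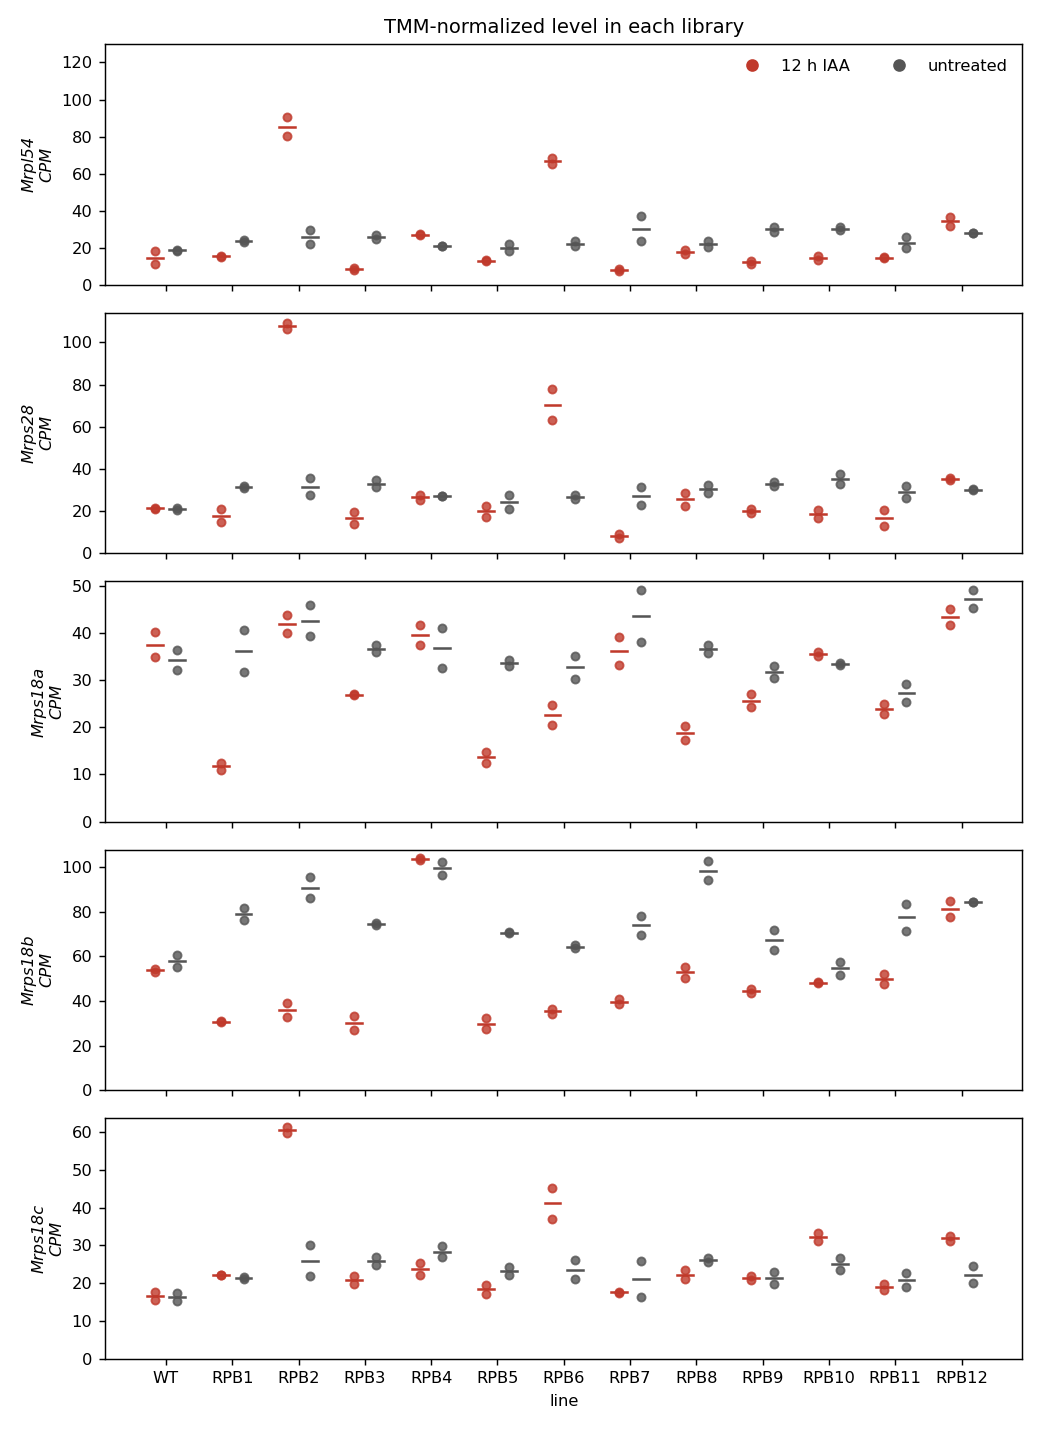
TMM-scaled level in CPM of Mrpl54, Mrps28, Mrps18a, Mrps18b and Mrps18c in each library of the 12 h set, with IAA (red) left of untreated (grey) in every line and a bar at the mean of the 2 libraries. Mrpl54 and Mrps28 stand above 60 CPM only with IAA in RPB2 and RPB6 cells, Mrps18b lies lower with IAA in 9 lines, and Mrps18c stands highest in RPB2 cells with IAA.

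After 1 h of IAA the members in RPB1 cells leaned the other way. Of 77 members 28 were higher and 6 lower at 1 h against 0 h, beside 11% and 13.9% of all genes (median 0.185 against 0.01), and total-count and mitochondrial-mRNA scaling kept that direction, with 28 and 6, and 11 and 1. The number depends on single libraries: 11 were called without 0 h replicate 1, 16 without 1 h replicate 1, 13 without 1 h replicate 2 and 24 without 0 h replicate 2, always with more higher than lower. In RPB3 cells 0 were called by edgeR or DESeq2, beside 0.358% of all genes, with 3 at an unadjusted p under 0.05 (median 0.06, or -0.09 without 1 h replicate 2). In RPB6 cells 1 was called, beside 1.54% of all genes: Mrpl2, which lies at the peptidyl transferase centre, with 103 and 91.4 CPM at 1 h, against 67.3 and 69.2 CPM at 0 h (log2 fold change 0.52, SE 0.119, adjusted p = 0.0386). The members' median in RPB6 cells was 0.20 against -0.0035 for all genes, with 64 of 77 above 0, beside 49.4% of all genes; a fit of the RPB6 libraries alone called 11 higher, the fit with a replicate term 12 higher and 1 lower, the fit without a low-count filter 14 higher and DESeq2 3 higher. The call of Mrpl2 was lost with mitochondrial-mRNA scaling, which called 0 members, and 0 were called without 0 h replicate 1, 0 h replicate 2 or 1 h replicate 1, against 3 without 1 h replicate 2.

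Mrps34, Mrpl57 and Mrpl54 rose most in RPB1 cells at 1 h. Mrps34, a small-subunit protein needed for its stability, had 25.2 and 24.4 CPM at 1 h, against 9.11 and 17.6 CPM at 0 h (log2 fold change 0.90, SE 0.201, adjusted p = 0.0037); it overlaps Nme3 and Mapk8ip3. Mrpl57 had 45.1 and 45.2 CPM at 1 h, against 26.4 and 22.7 CPM at 0 h (0.88, SE 0.138), and Mrpl54 had 18.6 and 20.8 CPM at 1 h, against 10.6 and 11.5 CPM at 0 h (0.83, SE 0.284). Mrpl2 (0.73, SE 0.122), Mrps5 (0.62, SE 0.104), which shapes the mRNA channel of the small subunit, and Mrpl38 (0.52, SE 0.0984) also rose. The 2 libraries at 1 h lay above the 2 at 0 h for each of the 6. The lowest was Mrps30, a large-subunit protein despite its symbol, with 49.9 and 51.4 CPM at 1 h, against 74.7 and 77.2 CPM at 0 h (-0.58, SE 0.118, adjusted p = 0.00183), followed by Mrps18b (-0.43, SE 0.118) and Mrpl1 (-0.36, SE 0.0988).

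The early and late responses in RPB1 cells pointed different ways for many members. 15 were higher at 1 h and lower at 12 h (19.5%, beside 3.38% of all genes tested in both sets), among them Mrpl54, Mrps24, Mrps28, Mrps34 and Mrps5, and 0 were higher at both, where 4.11% of all genes were. Another 6 were lower at both times: Mrpl1, Mrpl3, Mrpl50, Mrps10, Mrps18b and Mrps30 (7.79%, beside 6.99% of all genes). The sets differ in depth, and for the early set the labels name no library type, so levels were not compared across them and the difference between times was not tested. Across members, the 1 h responses in RPB1 and RPB6 cells had a Spearman correlation of 0.83, beside 0.52 over all genes, and the 1 h and 12 h responses in RPB1 cells 0.22; the points of each comparison share their libraries. For the value of 0.22 none over all genes is given.

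Members are compact genes. Their median exon length was 2394 bases, against 3504 over protein-coding genes, and their median span 7899.5 bases, against 17470. At 1 h in RPB1 cells shorter members tended to higher values, with a Spearman correlation of -0.40 between exon length and log2 fold change over members and -0.33 over protein-coding genes. In RPB2 cells at 12 h the correlation with exon length was -0.10 over members, beside -0.18 over protein-coding genes. In RPB1 cells at 12 h it was -0.24 over members, beside -0.19. The part of gene length in the responses was not tested. Exon overlap with another gene concerned 33 members, 8 on the same strand and 28 on the other; among the 45 tested members without overlap 26 fell and 2 rose in RPB1 cells, and 24 rose and 11 fell in RPB2 cells under TMM.

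Promoters of nuclear genes for mitochondrial proteins are known for sites of NRF1, of ETS-family factors such as GABP, and of YY1. RefSeq promoter windows of build GRCm38.p6, 250 bases before to 50 after the start site, matched 69 of 78 members in 75 windows. Searched on both strands, the ETS letters CCGGAAG stood in 26 of 75 member windows (34.7%, beside 8.86% of 32851 windows of all genes), the YY1 letters ATGGCGG in 13 (17.3%, beside 4.05%) and the NRF1 letters CATGCGC in 8 (10.7%, beside 3.91%). Any of them stood in 37 windows (49.3%, beside 15%); none of the 3 strings contains another, and median GC was 58.7% in member windows and 52.7% in all. Shown for Mrpl43, Mrpl58, Mrpl34 and Mrpl33 are the 100 bases before the start site, 5′ to 3′ on the gene's strand. Motifs are in capitals. Mrpl43, lowest in RPB6 cells, holds ETS matches at -56 and -12 from the start site. Mrpl58, lower in 8 lines, holds them at -17 and -2. Mrpl34 was the most abundant per kilobase of exon. Mrpl33, the least abundant tested member per kilobase, holds an NRF1 match in reverse and an ETS match at -3. The ETS matches at -2 and -3 cross the start site and are not in capitals.
Mrpl43, chr19:45006443-45006542, minus strand: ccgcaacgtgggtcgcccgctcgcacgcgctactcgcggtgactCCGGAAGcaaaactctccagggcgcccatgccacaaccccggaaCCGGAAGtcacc
Mrpl58, chr11:115403652-115403751, plus strand: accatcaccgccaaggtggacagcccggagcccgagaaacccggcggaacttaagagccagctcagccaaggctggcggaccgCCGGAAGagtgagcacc
Mrpl34, chr8:71464826-71464925, plus strand: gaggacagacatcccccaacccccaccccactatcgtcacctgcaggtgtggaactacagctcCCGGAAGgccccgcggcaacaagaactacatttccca
Mrpl33, chr5:31613851-31613950, plus strand: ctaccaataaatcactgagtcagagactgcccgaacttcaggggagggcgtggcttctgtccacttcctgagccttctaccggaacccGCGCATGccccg

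The members shown with ETS letters moved in different directions. Mrpl43 fell in RPB2 and RPB6 cells, whereas Mrpl34 rose there under TMM, to 199 and 218 CPM in RPB2 cells with IAA, against 87.4 and 95 CPM untreated (log2 fold change 1.19, SE 0.117). Over members, the median log2 fold change in RPB2 cells was 0.40 for the 25 with ETS letters and 0.29 for the 43 without, and in RPB1 cells -0.38 and -0.47. For YY1 letters it was -0.75 for 12 members with them and -0.37 for 56 without in RPB1 cells, and -0.09 and 0.45 in RPB2 cells. These medians are descriptions without a test, and a match is no evidence of a bound factor.

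Other genes of mitochondrial gene expression gave a mixed background. Their counts below are under TMM, and the shares of all genes called in each line are given above. Some counts of these small lists in RPB2 cells lie near those shares and are not read as traits of a list. Of the 5 mitoribosomal proteins with other symbols, 3 fell in RPB1 cells and 4 in RPB3 cells, whereas 4 rose in RPB2 and in RPB6 cells under TMM. Dap3, a GTP-binding protein of the small subunit, had 414 and 407 CPM in RPB2 cells with IAA, against 151 and 177 CPM untreated (log2 fold change 1.32, SE 0.0942), and Gadd45gip1, of the large subunit, had 33.5 and 33.5 CPM in RPB1 cells with IAA, against 135 and 129.7 CPM untreated (-1.98, SE 0.137). Of 26 assembly factors 15 fell and 7 rose in RPB1 cells, and 17 fell and 6 rose in RPB2 cells. Of 17 mitochondrial aminoacyl-tRNA synthetases 11 fell and 3 rose in RPB1 cells and 7 fell and 7 rose in RPB2 cells; of 15 mitochondrial translation factors 9 fell and 2 rose in RPB1 cells and 5 fell and 6 rose in RPB2 cells; and of 11 genes of mitochondrial DNA transcription and upkeep 5 fell and 3 rose in RPB1 cells and 6 fell and 3 rose in RPB2 cells. Most of the 90 cytosolic ribosomal protein genes were not called in RPB1 cells, where 21 rose and 3 fell under TMM. Both are smaller shares than those of all genes given above, and the share that fell is far smaller. In RPB3 cells 68 of them fell and 1 rose, the same direction as the members under TMM. At 12 h in RPB1 cells 6 of 12 mitochondrial-genome mRNAs rose and 0 fell under TMM.

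Regulators of nuclear mitochondrial genes were lower where many members fell and also where many rose under TMM. Nrf1 had 34.7 and 34.2 CPM in RPB1 cells with IAA, against 79.9 and 74.1 CPM untreated (log2 fold change -1.16, SE 0.0988), and 12.4 and 14.4 CPM in RPB2 cells with IAA, against 90.1 and 92.5 CPM untreated (-2.77, SE 0.138). Pprc1, a coactivator of such genes, had 91 and 96.7 CPM in RPB1 cells with IAA, against 317 and 318 CPM untreated (-1.76, SE 0.09). Of the 8 regulators, 5 fell in RPB1, 7 in RPB2 and 6 in RPB6 cells under TMM. The shares of all genes lower in each line are given above. Pluripotency markers fell in the same libraries, 8 of 10 in RPB1, RPB2, RPB5, RPB6 and RPB8 cells, and 4 of 10 in WT cells; the summed level ranged between 3018 and 9563 CPM in libraries with IAA, against 4768 and 7117 CPM in untreated ones. Their part in the members' changes was not tested.

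**Figure D5:**
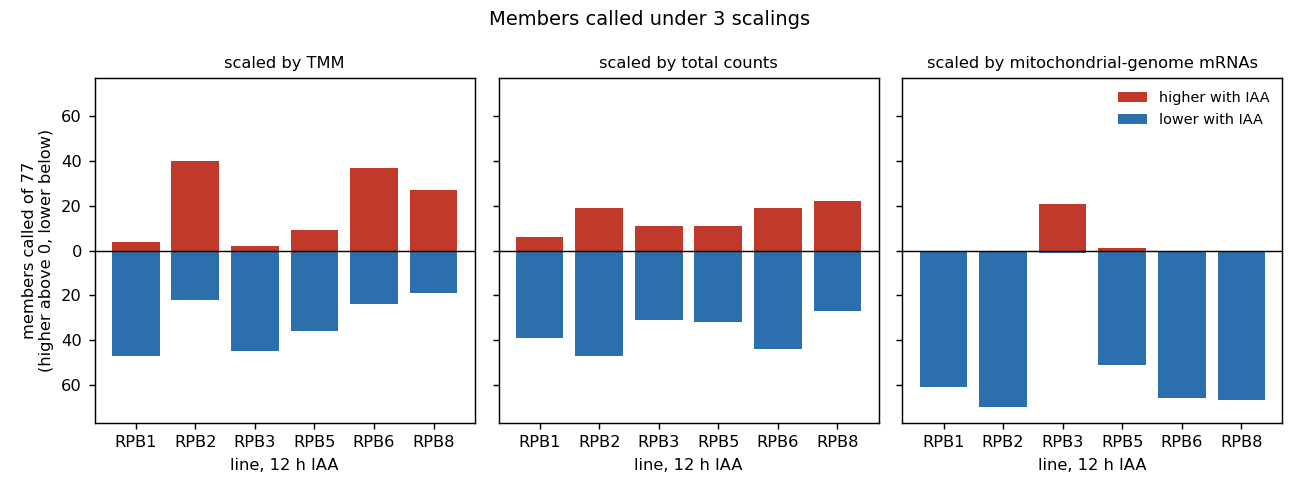
Number of the 77 tested members called higher (red, above 0) or lower (blue, below 0) with 12 h of IAA in 6 lines, with libraries scaled by TMM (left), total counts (middle) or mitochondrial-genome mRNAs (right). RPB1 and RPB5 cells have more lower than higher in each panel, whereas RPB2, RPB6 and RPB8 cells have 40, 37 and 27 higher on the left, 19, 19 and 22 in the middle and 0 on the right.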

How the data were processed

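RNA-seq read counts per gene were deposited by the authors as 1 table with a column per library, not pooled. The submitters' processing notes name featureCounts, STAR, Bowtie2, cutadapt 1.18, SAMtools, DESeq2 and deepTools, with no role or order, and the builds mm10 and dm6; which annotation release and strand setting were used, and what became of multi-mapped reads, is not stated in those notes. Poly(A) selection is stated for the 12 h libraries only. Of 68 columns 64 matched a sample, and 4 were not used. Each of the 64 libraries was placed by its label.

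The counts were tested with edgeR 4.0.16 in R 4.3.3 (filterByExpr, TMM, glmQLFit, glmQLFTest, two-sided), in 1 fit per set: 17928 genes, 52 libraries and 26 residual degrees of freedom at 12 h, and 15658 genes, 12 libraries and 6 in the 0 h and 1 h set. Adjustment was by Benjamini-Hochberg over all genes of a comparison, at 0.05. Differences of responses were contrasts in the same fit. The tests were checked on simulated data. Gene names and exons came from GENCODE M21 (55154 of 55335 identifiers matched).

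Members and lists were chosen with earlier results of these data known. Genes named are the 3 highest and 3 lowest called, non-overlapping members with a mean of at least 5 CPM in a comparison, the members called in most lines, those extreme in untreated level or between untreated lines, those at the ends of pair differences, the S18 paralogues, and the leading genes of other lists; fewer are printed where genes repeat. Mrpl34 in RPB2 cells is given because its promoter is shown. Alternatives were DESeq2 1.42.0 (its size factors alone, and its test), total-count and mitochondrial-mRNA scaling, no low-count filter, a replicate term, a fit of a line's own libraries, and each library left out, with the full fit's trended dispersion kept and a lone library assumed to vary like the others.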

Additional observations from a re-analysis of the deposited data

Results flagged for a closer look

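The responses of 10 degron lines differed from the WT response, in a direct test of the difference, for 39 members in RPB1, 58 in RPB2, 22 in RPB3, 28 in RPB5, 53 in RPB6, 17 in RPB7, 44 in RPB8, 10 in RPB9, 7 in RPB10 and 5 in RPB11 cells, of 77 each. Of those not split in the text above, RPB7 had 3 higher and 14 lower (beside 11.4% and 13.8% of all genes), RPB9 2 and 8 (8.07% and 9.91%), RPB10 3 and 4 (10.9% and 14.7%) and RPB11 0 and 5 (4.68% and 6.61%). Shares of members at or near these backgrounds are no result about the members.

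Tests between lines called 63 members for RPB2 minus RPB1, 60 for RPB6 minus RPB1, 16 for RPB4 minus RPB7 and 17 for RPB11 minus RPB3. For RPB2 minus RPB1 the differences of log2 fold changes at the ends were 2.58 for Mrps28, 2.34 for Mrpl54, -2.78 for Mrpl32 and -3.20 for Mrpl44. For RPB6 minus RPB1 they were 2.22 for Mrps28, 2.21 for Mrpl54, -1.72 for Mrps2 and -2.14 for Mrpl43. For RPB4 minus RPB7 they were 2.27 for Mrpl54, 1.72 for Mrps28, -0.61 for Mrpl34 and -0.79 for Mrpl41. For RPB11 minus RPB3 they were 1.06 for Mrps36 and 1.02 for Mrps33; pseudogene copies of Mrps36 leave its reads uncertain. With 2 libraries a group, no test for a single outlying library could be made.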

How the results depend on the processing

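Over the settings tried, the members stood below the median of all genes in RPB1 cells at 12 h (gap between -0.62 and -0.50) and above it in RPB2 (0.18 to 0.61) and RPB6 cells (0.14 to 0.35), although raw directions in RPB2 and RPB6 cells turn with the scaling. Scaling shifts all genes of a library alike, so agreement on these gaps between scalings was nearly fixed in advance. Without the low-count filter, which changes the genes compared, they were -0.62, 0.18 and 0.14. Scaled to mitochondrial-genome mRNAs, counts of called members became 22 in RPB3, 1 in RPB9, 5 in RPB10, 0 in RPB11 and 0 in RPB12 cells, 12 in RPB1 and 0 in RPB6 cells at 1 h, 9 for RPB3, 6 for RPB7 and 0 for RPB9, RPB10 and RPB11 minus WT, 36 for RPB2 minus RPB1, 27 for RPB6 minus RPB1 and 0 for RPB11 minus RPB3. RPB11 minus RPB3 gave 11 with DESeq2, with its size factors and with total counts. Without a low-count filter RPB12 cells gave 0, RPB6 cells at 1 h 14 and RPB10 minus WT 4; DESeq2 gave 0 in RPB12 cells and 3 in RPB6 cells at 1 h. A fit of the line's own libraries gave 2 in WT, 15 in RPB7, 40 in RPB9, 47 in RPB10, 5 in RPB11 and 6 in RPB12 cells, and 11 in RPB6 cells at 1 h. Same-numbered libraries did not deviate together (correlations between -0.148 and 0.0551), so no pairing by number was seen. With 2 libraries a group this check cannot exclude one. The replicate block gave 13 in RPB6 cells at 1 h and moved no other count by over 1.5 times. In RPB7 cells the crossed replicate block, added after the data were seen, gave 31 called, as without it.

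Leaving out 1 library gave 44 to 50 called in RPB1, 56 to 60 in RPB2, 38 to 44 in RPB3, 38 to 44 in RPB5, 53 to 57 in RPB6, 24 to 41 in RPB7, 41 to 44 in RPB8, 12 to 14 in RPB9, 10 to 13 in RPB10, 9 to 16 in RPB11 and 0 to 1 in RPB12 cells, 0 in WT and RPB4 cells, and 11 to 24, 0 to 2 and 0 to 3 in RPB1, RPB3 and RPB6 cells at 1 h. Against WT it gave 33 to 38 in RPB1, 51 to 58 in RPB2, 15 to 26 in RPB3, 26 to 32 in RPB5, 47 to 50 in RPB6, 12 to 21 in RPB7, 32 to 41 in RPB8, 4 to 7 in RPB9, 3 to 6 in RPB10, 2 to 6 in RPB11 and 0 in RPB4 and RPB12 cells. Between lines it gave 62 to 63 for RPB2 minus RPB1, 55 to 61 for RPB6 minus RPB1, 12 to 23 for RPB4 minus RPB7 and 6 to 16 for RPB11 minus RPB3, and 71 to 75 among untreated lines.

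Of 118 named log2 fold changes, 3 turned with total counts: Mrps6 (-0.29) and Mrps10 (-0.091) in RPB2 cells and Mrps10 (-0.11) in RPB6 cells. Scaled to mitochondrial-genome mRNAs 23 turned and 43 lost their call. The reversed ones were Mrps6 (-0.041) in RPB1 cells; Mrps15 (-0.28), Mrps21 (-0.43), Mrps28 (-0.43), Mrpl10 (-1.12), Mrps6 (-1.61), Mrps10 (-1.44) and Mrps18c (-0.98) in RPB2 cells; Mrpl1 (0.23) and Mrps18a (0.34) in RPB3 cells; Mrpl10 (-0.10) and Mrps23 (-0.022) in RPB5 cells; Mrpl54 (-0.37), Mrps33 (-0.38), Mrps21 (-0.40), Mrpl10 (-1.07), Mrps6 (-0.99), Mrps10 (-1.45) and Mrps18c (-1.16) in RPB6 cells; Mrpl10 (-0.048) and Mrps23 (-0.014) in RPB7 cells; and Mrps17 (-0.15) and Mrpl10 (-0.35) in RPB8 cells. That scaling sets the mitochondrial-genome mRNAs equal between libraries by construction; the cause of the other changes was not tested. Spike-in counts, which could set an absolute scale, were not analysed here, and members at a few counts, such as Mrpl44 in treated RPB2 cells, have wide errors.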
